A study of Mus musculus with 104 samples.

Results

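Transthyretin (Ttr) was silenced in primary mouse hepatocytes (PMH) with the 3 siRNAs D4, D5 and D6 at 0.1 nM, the lowest of 4 doses. The 12 libraries labelled with these siRNAs at that dose (4 per siRNA) were compared with the 8 mock libraries, and they are 12 of the 96 siRNA libraries of the series, which cover 6 siRNAs at 4 doses. D4 is the parent siRNA. D5 differs from it by a GNA-G nucleotide at guide position 6 and D6 by a GNA-isoG nucleotide at the same position. GNA (glycol nucleic acid) is an acyclic nucleotide analogue that weakens pairing of the guide seed with its targets. All cells, mock included, were primary hepatocytes from a commercial supplier, processed 24 h after transfection. The siRNAs were given with a transfection lipid, and neither the labels nor the paper says whether mock cells received it. The 12 libraries of D1, D2 and D3 at 0.1 nM, siRNAs against Hao1, had received an siRNA and lipid but kept Ttr, and were used as a second comparison. Neither the strain, sex and age of the animals nor whether replicates came from separate cultures is given in the sources used here, so p-values measure only the spread between these libraries. The question was which transcripts moved with the loss of Ttr mRNA at the lowest dose, with the genes that match the guide seed measured beside it.

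Transthyretin is a plasma protein that hepatocytes make and secrete. It carries thyroxine and, through its partner retinol-binding protein (Rbp4), vitamin A. An siRNA guide that pairs with its target along its whole length directs cleavage of the mRNA, whereas pairing of the seed alone, guide positions 2 to 8, can lower other transcripts in the manner of a microRNA.

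The libraries held 3409963 to 5308584 gene counts in mock, 4570355 to 5443438 with the Ttr siRNAs and 4594976 to 6160626 with the Hao1 siRNAs. All 8 hepatocyte markers were measured, and their summed level was 15055 to 18132 CPM (counts scaled to the library total) in mock and 15661 to 18724 with the Ttr siRNAs. Of 10 Kupffer cell markers, 8 had no count, Clec4f and Adgre1 among them, and the list summed to at most 1.49 CPM with the Ttr siRNAs. Summed endothelial markers spanned 9.68 to 16.4 CPM in mock and 9.79 to 16.8 CPM with the Ttr siRNAs. Those of stellate cells spanned 14.9 to 27.5 and 13.8 to 29.3 CPM, with no count for Des, and those of cholangiocytes 150.2 to 176.5 and 118.4 to 170.3 CPM. The 6 lymphocyte markers reached at most 6.44 CPM and the 4 erythroid markers at most 0.387 CPM, with no count for Cd3d, Nkg7, Hba-a1, Hba-a2 and Hbb-bt. In bulk RNA, fewer cells of a type and less RNA per cell cannot be told apart. The Ttr siRNA libraries differed from mock by 0.0169 percentage points in the share of ERCC spike-in counts, by 0.164 points in the mitochondrial share and by 235 detected genes, with adjusted p of 0.703, 0.303 and 0.305 (exact two-sided permutation of libraries, adjusted over 3 measures).

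Ttr (ENSMUSG00000061808, GRCm39 chromosome 18: 20797253 to 20807467, plus strand) ranked 50 of 54749 genes by CPM per kb of exon in mock, next to the secretory genes Apoa1 at rank 34 and Rbp4 at rank 64. The mock libraries held 2421 to 3558 Ttr counts with a median of 3192. The D4 libraries held 15, 19, 27 and 22 Ttr counts. The D5 libraries held 17, 335, 6 and 14, and the D6 libraries 29, 14, 20 and 17. All 12 treated libraries lay below all 8 mock libraries, and 11 of the 12 held under 30 counts. In the Hao1 siRNA libraries Ttr held 2688 to 4000 counts, which overlapped mock.

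As a percentage of the mean CPM in mock, Ttr remained at a median of 0.524% with the Ttr siRNAs, with a range of 0.176% to 11.2%. On the log2 CPM scale Ttr was at 9.36 ± 0.13 (SD, n = 8) in mock, 9.29 ± 0.09 (SD, n = 12) with the Hao1 siRNAs and 2.27 ± 1.35 (SD, n = 12) with the Ttr siRNAs. The difference between the Ttr siRNAs and mock was −7.09, with p = 7.94e-06 in the exact two-sided permutation test, the smallest p that 125970 splits can give. Counts this low carry a counting error of their own, so that the level left in a single library is imprecise.

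**Figure D1:**
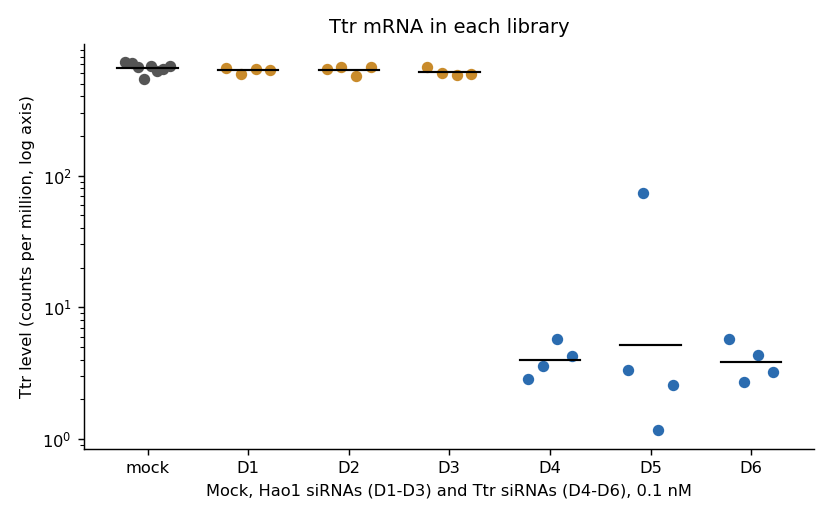
Ttr level in each library at 0.1 nM, in CPM on a logarithmic vertical axis, for mock, the Hao1 siRNAs D1 to D3 and the Ttr siRNAs D4 to D6, with points for libraries and lines for the geometric mean of a group. The Ttr siRNA libraries lie below all others, and D5 replicate 2 stands above the rest of them at 73.9 CPM.

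The D5 library with residual Ttr was replicate 2, with 335 counts, 11.2% of the mock mean. Its Ttr was 8.94-fold below the mock mean, against 114-fold to 568-fold in the other 11 libraries. Both sequencing runs of this library gave the residue, with 179 Ttr counts (77.4 CPM) in run 1 and 156 (69.1 CPM) in run 2. The library had the lowest total count and the fewest detected genes (15666) of the 12. The source of the residue was not tested. Without it, Ttr was at 1.91 ± 0.55 (SD, n = 11), between 0.176% and 0.877% of the mock mean. The difference from mock was then −7.45, with p = 1.32e-05 in the exact permutation test, the smallest that 75582 splits can give.

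D4, D5 and D6 share a guide sequence and differ by the nucleotide at position 6, and they were compared with each other at the matched dose of 0.1 nM in 3 pairs. The mean log2 CPM of Ttr was 2.14 ± 0.38 for D4, 2.58 ± 2.48 for D5 and 2.09 ± 0.44 for D6 (SD, n = 4 each). D6 with GNA-isoG minus parent D4 was −0.04 (p = 0.886), D5 with GNA-G minus D4 was 0.45 (p = 0.971) and D6 minus D5 was −0.49 (p = 0.943) in exact two-sided permutation tests, with an adjusted p of 0.971 for each over the 3 pairs. With 4 libraries against 4, no p under 0.0286 can be reached. The edgeR estimate of D6 against D4 was −0.03 on the log2 scale with a 95% interval of −0.61 to 0.55. For D5 against D4 the interval ran from −1.52 to 6.02 around 2.25, and for D6 against D5 from −6.15 to 1.61 around −2.27. The wide pair of intervals both include D5 replicate 2, and without this library the direction turned, to −0.79 for D5 against D4 and 0.76 for D6 against D5. Across the 3 pairs no gene (0.0%) passed the adjusted test with edgeR or with DESeq2. With edgeR 252 genes (2.27%), 401 genes (3.6%) and 356 genes (3.2%) had an unadjusted p under 0.05 for D5 against D4, D6 against D4 and D6 against D5.

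At 1, 10 and 50 nM of the same siRNAs Ttr held 4 to 27, 3 to 22 and 2 to 11 counts per library, with medians of 8.5, 8.0 and 5.0. The 11 libraries at 0.1 nM other than D5 replicate 2 held 6 to 29 counts. Their median of 17 lay above the medians at the higher doses. Their range overlapped that at each higher dose, but at 50 nM only through D5 replicate 3 with 6 counts. These counts are not scaled for depth.

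The number of other transcripts that passed the test against mock was small in the fit reported here and depended on the settings. Of 11200 genes tested with edgeR's quasi-likelihood test, 3 (0.0268%) had a Benjamini-Hochberg adjusted p under 0.05, and Ttr was 1 of them. Ttr fell by 6.21 on the log2 scale (SE 0.51, adjusted p = 1.45e-07), Ccne1 fell by 0.48 (SE 0.09, adjusted p = 0.0106) and Cpeb1 rose by 0.32 (SE 0.06, adjusted p = 0.0366). Ttr was also the only gene tested that lay lower in every Ttr siRNA library than in every mock library (0.00893%), and no gene lay higher in all of them. Unadjusted p-values under 0.05 numbered 1256 (11.2%), with 572 genes lower (5.11%) and 684 higher (6.11%).

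The changes of the other genes were small in size. Over the 11199 genes other than Ttr the median absolute log2 fold change was 0.0654, and the median SE was 0.0746. For 99.3% of them the 95% interval lay within ±1 on the log2 scale, and for 87.5% within ±0.5, so that a 2-fold change lay outside the interval of nearly all of them. Without D5 replicate 2, 5 of 11167 genes (0.0448%) passed the adjusted test with edgeR, the 3 above with Csn3 and Sprr1a.

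The number of genes past the threshold depended on the mock libraries. It was 44 without mock replicate 6, 13 without mock replicate 5, 13 without D4 replicate 1, 14 without D4 replicate 4, 5 without D5 replicate 2, and Ttr alone without mock replicate 7. With mock replicates 1 to 4 as the only controls, an alternative chosen after seeing the data, 84 genes passed. DESeq2 called 14 genes, and edgeR with all genes of at least 1 count called 131 of 25869.

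**Figure D2:**
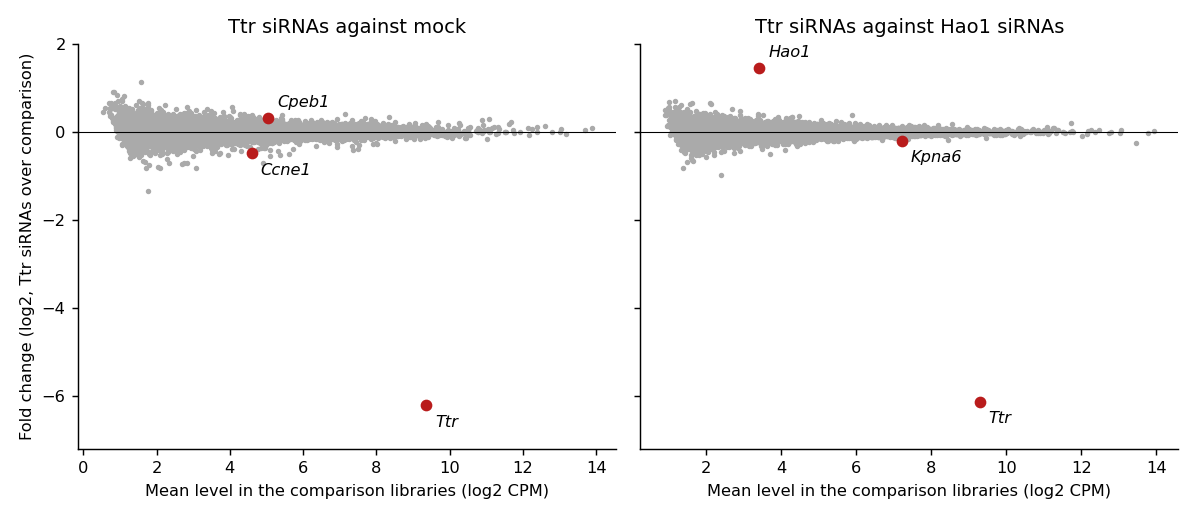
Log2 fold change of each gene tested on the vertical axis against its mean level in the comparison libraries in log2 CPM, for the Ttr siRNAs at 0.1 nM against mock (left) and against the Hao1 siRNAs (right), with called genes in red. Ttr lies far below the other genes at −6.21 and −6.13, and Hao1 lies at 1.46 on the right.

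Ccne1 encodes cyclin E1, which drives entry into S phase. Its level was 4.35 to 4.76 log2 CPM in mock (median 4.62) and 3.71 to 4.44 with the Ttr siRNAs (median 4.16). With D4 it was 3.78, 4.03, 4.27 and 4.33, with D5 4.26, 3.88, 4.28 and 4.44, and with D6 4.25, 4.08, 3.71 and 4.01. In 11 of the 12 libraries Ccne1 was below all mock libraries, and D5 replicate 4 alone overlapped them. Without mock replicate 7 its adjusted p was 0.0651. The Hao1 siRNA libraries, at 4.22 to 4.63, lay between the other groups and overlapped both. Against them the Ttr siRNAs differed by −0.32 (adjusted p = 0.340, edgeR), and the Hao1 siRNAs differed from mock by −0.17 (adjusted p = 0.731).

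Cpeb1 encodes an RNA-binding protein that controls cytoplasmic polyadenylation. It was at 4.85 to 5.18 log2 CPM in mock (median 5.10) and at 5.12 to 5.53 with the Ttr siRNAs (median 5.36), where 11 of 12 libraries were above all mock libraries. The Hao1 siRNA libraries spanned 4.56 to 5.66 with a median of 5.35. Cpeb1 differed by 0.28 between the Hao1 siRNAs and mock (adjusted p = 0.508) and by 0.04 between the Ttr and the Hao1 siRNAs (adjusted p = 0.996, edgeR). Its call against mock was lost in 10 of the 20 fits that left out 1 library, with adjusted p up to 0.141.

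The genes with the next smallest p-values did not pass the test in the fit reported here and are given as values, but 7 of them, Sprr1a, Csn3, Acacb, Lpin1, Memo1, Axl and Tspan9, passed with DESeq2 (adjusted p of 0.00919, 0.00889, 0.0279, 0.0279, 0.00919, 0.0495 and 0.0495) and with edgeR on all genes of at least 1 count (adjusted p of 0.0195 or less). Sprr1a, a cornified envelope precursor, was at 11.65 to 12.10 log2 CPM with the Ttr siRNAs (median 11.92) and at 11.42 to 11.86 in mock (median 11.71), with 9 of 12 libraries above all mock libraries. Its difference from mock was 0.24 (adjusted p = 0.0578, edgeR), or 0.26 (adjusted p = 0.00506) without D5 replicate 2. Csn3, the kappa casein gene, differed by 0.57 (adjusted p = 0.0578), or by 0.50 (adjusted p = 0.0197) without that library. The lipid genes Acacb, the mitochondrial acetyl-CoA carboxylase, and Lpin1, a phosphatidate phosphatase, differed by 0.41 and 0.22, and Memo1, a cell motility effector, by −0.19, each with an adjusted p of 0.0578. Axl, a receptor tyrosine kinase, differed by −0.37 and Tspan9, a tetraspanin, by 0.23, both with an adjusted p of 0.0843. Against the Hao1 siRNAs Csn3, Acacb, Lpin1, Memo1, Axl and Tspan9 differed by 0.33, 0.17, 0.08, −0.10, −0.23 and 0.09, each with an adjusted p of 0.996. Sprr1a differed by 0.20 there (adjusted p = 0.0547), and it passed with DESeq2 (adjusted p = 0.0446), with all genes of at least 1 count (adjusted p = 4.72e-07), from run 1 alone (adjusted p = 0.0328), from run 2 alone (adjusted p = 0.0395) and without D5 replicate 2 (adjusted p = 0.00115).

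**Figure D3:**
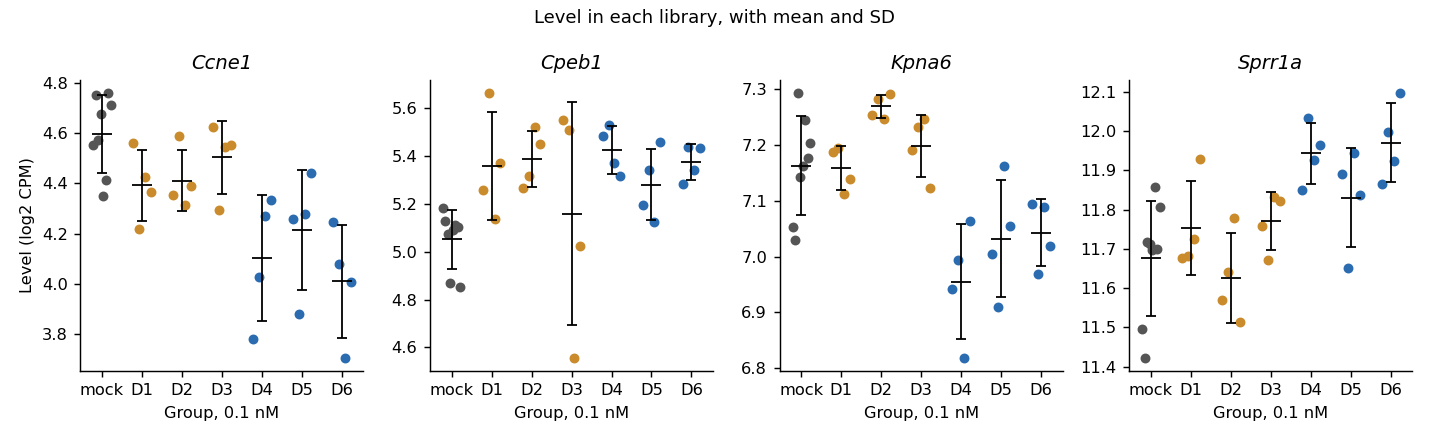
Levels of Ccne1, Cpeb1, Kpna6 and Sprr1a in log2 CPM on the vertical axis, with 1 point per library for mock, D1 to D3 and D4 to D6 at 0.1 nM and bars for the mean ± SD of a group. Ccne1 is lower than every mock library in 11 of the 12 Ttr siRNA libraries, and Kpna6 is lower than every Hao1 siRNA library in 11.

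Against the Hao1 siRNAs, which share the siRNA treatment but keep Ttr, 3 of 11038 genes (0.0272%) passed the adjusted test with edgeR, and 460 (4.17%) had an unadjusted p under 0.05, 214 lower (1.94%) and 246 higher (2.23%). The 3 called were both targets and Kpna6. Of the genes tested, Ttr alone was lower and Hao1 alone higher in every Ttr siRNA library than in every Hao1 siRNA library (0.00906% each). Ttr was lower by −6.13 on the log2 scale (adjusted p = 5.54e-10) and Hao1 higher by 1.46 (adjusted p = 3.65e-08). Hao1, which encodes glycolate oxidase, was at 4.62 to 5.14 log2 CPM with the Ttr siRNAs (median 4.94), 4.81 to 5.29 in mock (median 5.11) and 2.05 to 3.90 with its own siRNAs (median 3.72). The Ttr siRNA libraries thus overlapped mock for Hao1 and lay above all Hao1 siRNA libraries. Among the next smallest p-values of this comparison, which did not pass, were those of Uba7, the activating enzyme of ISG15 (0.38, adjusted p = 0.206), the actin regulator Baiap2l1 (0.16, adjusted p = 0.349), the zinc finger gene Zbtb39 (0.42, adjusted p = 0.356) and Ppl, which encodes periplakin (0.16, adjusted p = 0.521).

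Kpna6 encodes importin alpha 7, an adapter for nuclear import. It was at 6.94, 6.99, 6.82 and 7.06 log2 CPM with D4, between 6.91 and 7.16 with D5 and at 7.09, 6.97, 7.09 and 7.02 with D6. The Hao1 siRNA libraries held 7.11 to 7.29 (median 7.21) and mock 7.03 to 7.29 (median 7.17). In 11 of 12 libraries it lay below all Hao1 siRNA libraries, with D5 replicate 3 as the exception, and in 7 of 12 below all mock libraries. Kpna6 fell by 0.20 against the Hao1 siRNAs (SE 0.04, adjusted p = 0.00877, edgeR), and its difference from mock was −0.16 (adjusted p = 0.147). Its adjusted p against the Hao1 siRNAs was 0.314 from run 1 alone, and between 0.00259 and 0.0320 when any 1 of the 24 libraries was left out.

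The 3′-UTRs of Kpna6 and of the other genes were searched for runs of pairing with the guide, a search chosen after the values of Kpna6 had been seen. In the GENCODE annotation of GRCm39 it holds a run of 14 bases complementary to guide positions 5 to 18, at chr4:129541281-129541294 on the minus strand, which takes in only positions 5 to 8 of the seed. The run stands in capitals in 30 bases of the reference, shown because it is the longest pairing in the called transcript that is no target.

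Kpna6: ccaaacaaAGTGTTCTTGCTCTgacccata

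Among 10573 genes searched, 4 (0.0378%) hold a run of at least 14 bases and 19 (0.18%) a run of at least 13. The 18 genes other than Kpna6 with a run of at least 13 had a median log2 fold change of −0.03 against the Hao1 siRNAs, with a range of −0.19 to 0.09. An unadjusted p under 0.05 (edgeR) was found for 1 of the 18, beside 4.17% over all genes tested in that comparison. That gene was Cnot6, a subunit of the CCR4-NOT deadenylase, at −0.09. Against mock, Cnot6 was at −0.14 and Kpna6 at −0.16, with adjusted p of 0.156 and 0.147 (edgeR). The rest of these genes ranged from −0.11 to 0.16 against mock.

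The same genes were followed to higher doses of the Ttr siRNAs against the Hao1 siRNAs at the same dose, a comparison chosen after the values at 0.1 nM had been seen. The fold changes of this comparison pool D4, D5 and D6. Kpna6 differed on the log2 scale by −0.62, −1.27 and −1.43 at doses of 1, 10 and 50 nM. The SE was 0.13, 0.31 and 0.28, and the adjusted p 0.0187, 0.00547 and 0.000927 (edgeR). Ccne1 differed by −0.64 at 1 nM (adjusted p = 0.0655) and by −0.92 and −0.89 at 10 and 50 nM (adjusted p of 0.00225 and 0.00411). Sprr1a rose by 0.51, by 1.10 and by 1.17 (adjusted p of 0.000684, 6.55e-09 and 6.45e-08). Cpeb1 differed by 0.08, 0.25 and 0.13 and did not pass the test at any of these doses. Ttr itself was at −8.39, −8.88 and −9.65 against the Hao1 siRNAs. The differences between doses were not tested. Hao1 was at 3.66, 3.89 and 3.79 in the same comparison at 1, 10 and 50 nM. Genes matching the seed of the Ttr siRNAs moved at these doses too, such as Axl at −2.22 with D4 at 10 nM against mock. The paper reports that the parent siRNA against Hao1 also lowered transcripts that match its own seed. A difference between the groups can therefore arise with either set of siRNAs. No value against mock, and none for a single siRNA, is given here for Kpna6, Ccne1 and Sprr1a at these doses. The paper reports less seed-related dysregulation with D5 and D6 than with D4. A pooled value therefore need not hold for each siRNA. The part of seed matches on either side in their changes was not tested.

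Because transthyretin carries retinol with Rbp4, genes of retinoid handling were examined as a list. Rbp4 was at 8.69 to 8.82 log2 CPM with the Ttr siRNAs (median 8.73) and at 8.57 to 8.79 in mock (median 8.70), which overlapped, with a difference of 0.03 (SE 0.03, adjusted p = 0.750, edgeR). Of 18 members 12 passed the filter on low counts, none passed the adjusted test, and the median log2 fold change was 0.01, against 0.00 over all genes tested. At an unadjusted p under 0.05, 1 member was lower and 1 higher, beside 5.11% lower and 6.11% higher over all genes tested. Aldh1a1, a retinaldehyde dehydrogenase, was at −0.15 (adjusted p = 0.223), and the receptor for retinol-binding protein Stra6l at 0.53 (adjusted p = 0.311). The abundant carotenoid oxygenase Bco1 was at 0.02. Rbp2, Stra6, Lrat, Crabp2, Cyp26a1 and Cyp26b1 were too low to test.

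Of 12 genes of thyroid hormone handling and response, 8 were tested and none passed the adjusted test. The median log2 fold change was 0.16, with 7 of 8 above 0. At an unadjusted p under 0.05, 2 were higher (6.11% over all genes) and none lower. Slc16a10, which encodes an amino acid and thyroid hormone transporter, differed by 0.29 from mock (adjusted p = 0.195, edgeR) and by 0.10 from the Hao1 siRNAs (adjusted p = 0.996), and Hao1 siRNAs minus mock gave 0.19. Serpina7, which encodes thyroxine-binding globulin, differed by 0.38 (adjusted p = 0.659). The hormone-responsive genes Me1 and Klf9 were at 0.07 and −0.03, and the deiodinase gene Dio1, Slco1b2, Crym and Hr were too low to test.

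Transthyretin is a major secretory product, and the other secretory genes were examined for that reason. None of 23 tested secreted plasma protein genes passed the adjusted test against mock, and at an unadjusted p under 0.05, 6 were higher (6.11% over all genes) and none lower, with a median of 0.07. These were Trf, Cp, F2, Fgb, Apob and Fetub, with differences of 0.10 to 0.29. Against the Hao1 siRNAs none of the 23 had an unadjusted p under 0.05, and the median was −0.01. The difference from mock was similar in the Hao1 siRNA libraries, with 6 higher, none lower and a median of 0.07, where 725 genes (6.5%) of all tested had such a p, 2.95% lower and 3.55% higher. Both comparisons share the mock libraries. Albumin (Alb), the most abundant of the list, was at 0.05.

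Genes of endoplasmic reticulum protein folding and stress were all tested, 28 of 28, and none passed. The log2 CPM of Xbp1, a transcription factor of the unfolded protein response, averaged 7.21 ± 0.11 (SD, n = 8) without siRNA and 7.38 ± 0.09 (SD, n = 12) with the Ttr siRNAs, a difference of 0.16 (adjusted p = 0.141, edgeR). Atf6, another sensor of the response, differed by 0.15 (adjusted p = 0.252). The chaperones Hspa5, Calr and P4hb, the most abundant members, were at 0.04, 0.02 and 0.03, and the list had a median of 0.04.

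The interferon response genes had the lowest median of the lists, −0.24, with 23 of 26 tested members below 0. At an unadjusted p under 0.05, 9 were lower (5.11% over all genes) and none higher, and none passed the adjusted test. Stat2, a transducer of interferon signalling, was at −0.18 (adjusted p = 0.141, edgeR), the RNA sensors Rigi and Ifih1 at −0.24 and −0.17, and Ifi44, Isg15, Rtp4, Irf7, Oas1a and Irf9 between −0.71 and −0.14. The abundant antiviral factor Bst2 was at −0.17. The mean level of the list per library spanned 4.84 to 5.61 log2 CPM in mock, 4.37 to 5.69 with the Ttr siRNAs and 4.32 to 5.23 with the Hao1 siRNAs, and among the Ttr siRNA libraries D4 replicate 4 and D5 replicate 3 were highest at 5.69 and 5.52. With the Hao1 siRNAs, which kept Ttr, 3 members passed the adjusted test against mock, all lower, where 8 genes (0.0717%) passed in all, and the median was −0.42. These calls were lost in a fit of all libraries of the series and with mock replicates 1 to 4 only, where Hao1 was the 1 gene called. Against the Hao1 siRNAs, the Ttr siRNAs had a median of 0.17, and no member passed.

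Among RNA interference genes, 16 of 16 were tested, none had an unadjusted p under 0.05, and the median was −0.01. Ago2, the guide-loaded nuclease, Tnrc6a and Xpo5 were at 0.02, 0.05 and −0.01. None of the 19 acute phase genes passed, and Cebpb, a transcription factor, and Fgl1 had an unadjusted p under 0.05 with differences of 0.17 and 0.12, while Lcn2, Itih4 and Saa1 were at 0.00, 0.05 and −0.06. Of 24 hepatocyte identity genes 18 were tested and none passed. Prox1, Nr1i2 and Foxa2, which encode regulators of transcription, were at 0.19, 0.38 and 0.12, the cytochrome gene Cyp2e1 at −0.17, and Hnf4a and Ass1 at 0.09 and 0.05. The 13 tested genes of p53 and apoptosis had a median of 0.05 with none at an unadjusted p under 0.05, and Trp53inp1, Ccng1 and Cdkn1a were at 0.05, −0.04 and 0.05. Nr1i3, Nr0b2, Arg1, Cyp7a1, Cyp8b1, Slc10a1, Pmaip1 and Mx1 were too low to test. Gapdh, a reference gene, was at −0.01 (adjusted p = 0.922).

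**Figure D4:**
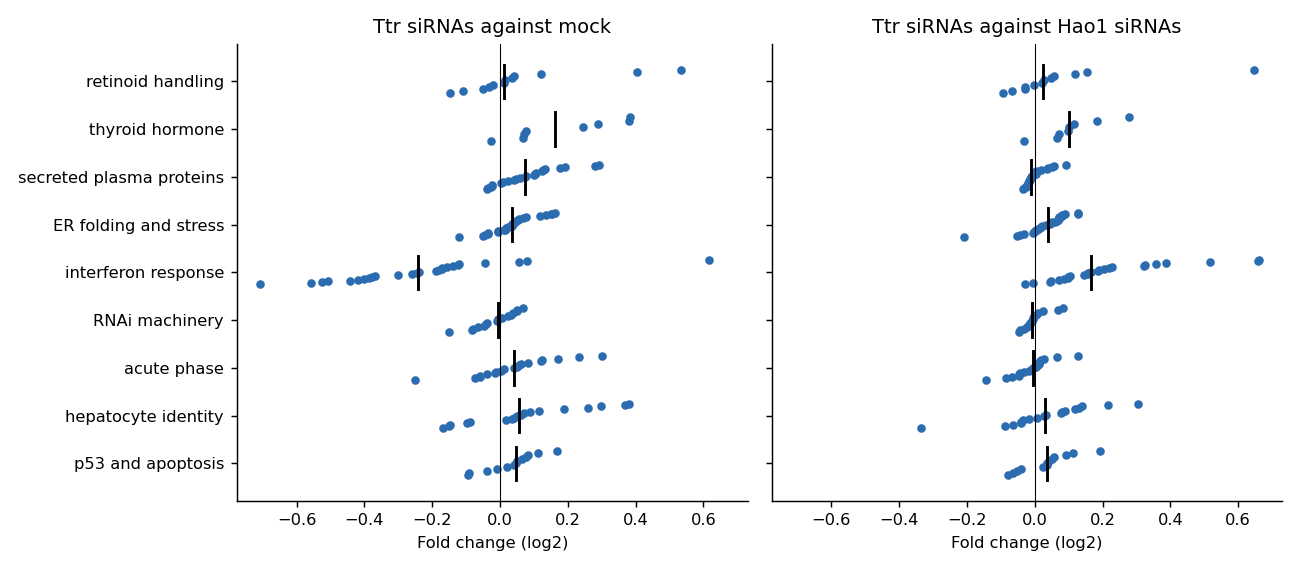
Log2 fold change on the horizontal axis of each tested member of the 9 gene lists, for the Ttr siRNAs at 0.1 nM against mock (left) and against the Hao1 siRNAs (right), with points for genes and a line for the median. The interferon response list lies lowest on the left, with a median of −0.24, and at 0.17 on the right.

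Changes of genes with a seed match are an alternative to the loss of Ttr itself, and their size at 0.1 nM was measured. Others, such as siRNA treatment, the lipid or pairing outside the seed, were not tested by these scores. The 3′-UTRs were searched on the transcript strand for CTCTATA, which pairs with guide positions 2 to 8 (mer7m8), for TCTATAA, which pairs with positions 2 to 7 and has an A opposite position 1 (mer7A1), and for both overlapping (mer8). Of 20854 canonical 3′-UTRs 2.57% hold mer8, 5.15% mer7m8 and 7.97% mer7A1 as their strongest match. The score of a library was the mean log2 CPM of a set minus that of genes without a match. For mer8 (276 genes) the score of the Ttr siRNAs minus mock was −0.0075 ± 0.0121 (SE, n = 12 and 8). For mer7m8 (586 genes) it was 0.0079 ± 0.0097 and for mer7A1 (927 genes) −0.0011 ± 0.0102, also SE. These differences were smaller than their SE, and the libraries of both groups overlapped, with mer8 scores of 0.158 to 0.223 in mock and 0.130 to 0.225 with the Ttr siRNAs. By siRNA, mer8 minus mock was −0.0030 ± 0.0203 for D4, −0.0007 ± 0.0183 for D5 and −0.0189 ± 0.0163 for D6 (SE). Of 263 mer8 genes tested against mock, 16 were lower and 11 higher at an unadjusted p under 0.05 (5.11% and 6.11% over all genes), and none passed the adjusted test.

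**Figure D5:**
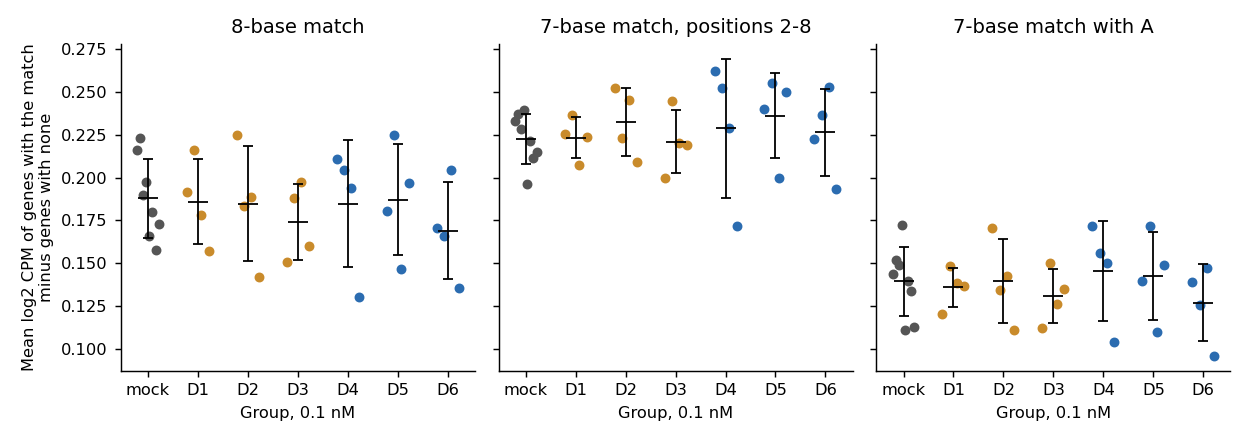
Seed score of each library at 0.1 nM, the mean log2 CPM of the genes with a match minus that of genes without one, for mer8, mer7m8 and mer7A1 (left to right) in mock, D1 to D3 and D4 to D6, with bars for the mean ± SD of a group. For mer8 the mock libraries lie between 0.158 and 0.223 and the Ttr siRNA libraries between 0.130 and 0.225.

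The 5 mer8 genes with the largest decrease with parent D4 at 10 nM were followed down to 0.1 nM. Each has a mer8 site, shown in capitals in 30 bases of the GRCm39 3′-UTR because it is the same 8-base match in the 5 transcripts whose levels follow. Axl at chr7:25457725-25457732 (minus), Hsd17b6 at chr10:127826964-127826971 (minus), Uhmk1 at chr1:170026704-170026711 (minus), Rnft1 at chr11:86387324-86387331 (plus) and Ifi204 at chr1:173574931-173574938 (minus) hold these sites.

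Axl: gatttttctggCTCTATAAttcgtggcaat
Hsd17b6: atctggtctcaCTCTATAAccctggctggc
Uhmk1: gagctaacacaCTCTATAAccatttcttcc
Rnft1: actgtattatgCTCTATAAtatgactagta
Ifi204: tcatttgttgtCTCTATAActtctataact

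At 10 nM of D4 the log2 fold changes of these genes were −2.22, −2.06, −2.05, −1.80 and −1.61 in the same order, the values that chose them. At 0.1 nM Axl was at −0.37 (adjusted p = 0.0843, edgeR), with 12 of 12 libraries below the mock mean and 6 of 12 below all mock libraries. Axl passed the test with DESeq2 (adjusted p = 0.0495), with all genes of at least 1 count (adjusted p = 0.00397) and with mock replicates 1 to 4 only (adjusted p = 0.0134). The steroid dehydrogenase gene Hsd17b6 was at −0.10, the kinase gene Uhmk1 at 0.00, the ubiquitin ligase gene Rnft1 at −0.03 and the interferon-inducible Ifi204 at −0.22, with adjusted p of 0.909, 0.983, 0.903 and 0.821. Both doses share the mock libraries. Ifi204 belongs to a family of near-identical genes, and its counts are uncertain for that reason. Slc25a40, which encodes a mitochondrial carrier and also has a mer8 match, was at 3.03 to 4.13 log2 CPM with the Ttr siRNAs (median 3.72) and had a median of 4.11 with the Hao1 siRNAs. It lay below all Hao1 siRNA libraries in 7 of 12 libraries, and its difference from them was −0.40 (adjusted p = 0.194, edgeR). Against mock, Slc25a40 was at −0.38 (adjusted p = 0.141, edgeR) and lay below all mock libraries in 6 of 12. With all genes of at least 1 count it passed against mock (adjusted p = 0.0455).

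Each siRNA was also tested singly against mock. With D4, 1 of 11293 genes passed the adjusted test with edgeR (0.00886%), Ttr at −7.33 (adjusted p = 2.36e-31), and 648 (5.74%) had an unadjusted p under 0.05. With D5, 0 of 11307 genes passed (0.0%) and 1013 (8.96%) had an unadjusted p under 0.05, and DESeq2 called 1 gene. Ttr was at −5.13 with an adjusted p of 0.128 there, and at −8.12 with an adjusted p of 9.84e-22 without D5 replicate 2. With D6, 6 of 11282 genes (0.0532%) passed and 910 (8.07%) had an unadjusted p under 0.05. With all genes of at least 1 count the numbers called were 18, 55 and 67 for D4, D5 and D6, and with mock replicates 1 to 4 only they were 8, 13 and 90. Without D5 replicate 3, 31 genes were called with D5.

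The genes called with D6 were Ttr (−7.36), Nrk (−0.48, adjusted p = 0.000497), Parp12 (−0.44, adjusted p = 0.000987), Ccne1 (−0.59, adjusted p = 0.0292), Irgm1 (−0.31, adjusted p = 0.0362) and D630045J12Rik (0.66, adjusted p = 0.0489). Parp12 and Irgm1 are interferon-inducible, and Parp12 also fell with the Hao1 siRNAs against mock (−0.27, adjusted p = 0.0271), a call lost in a fit of all libraries of the series and with mock replicates 1 to 4 only. Parp12 in D6 was at 6.68, 6.31, 6.31 and 6.56 log2 CPM, below the mock range of 6.73 to 7.08. D4 held 7.10, 6.30, 6.45 and 6.85 and so spanned wider than the mock range. D6 minus D4 and D6 minus D5 gave no call with edgeR, so these genes were not shown to differ between the siRNAs.

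The 3 nearest tested genes on each side of Ttr were the adhesion genes Cdh2, Dsc2 and Dsg2 before it and B4galt6, Trappc8 and Rnf125 after it. Their log2 fold changes were 0.12, 0.19, 0.13, 0.06, 0.05 and 0.21, all above 0, with adjusted p of 0.208 or more (edgeR). The loss was therefore not shared by any of the 6 neighbours tested. Cdh2, Dsc2, Dsg2 and Rnf125 had an unadjusted p under 0.05 (edgeR), where 6.11% of all genes tested were higher at such a p. The starts of Cdh2 and Ttr are 4096460 bases apart. Over the 8 mock libraries the genes whose level was most like that of Ttr, among 8602 with at least 10 CPM, were Twf2 (Pearson r = 0.97), Qsox1 (0.96), Flcn (0.95), App (0.95) and Exd2 (0.94). These points share depth and library preparation, and the correlations are a description. With the Ttr siRNAs their log2 fold changes were −0.04, 0.06, 0.04, 0.07 and 0.05, with adjusted p of 0.499 or more, while Ttr fell by 6.21.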

How the data were processed

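RNA was sequenced from transfected PMH. Per the paper's methods and the submitters' processing notes, the authors filtered reads with fastq-mcf, aligned them to GRCm39 with STAR, counted them per gene with featureCounts 2.0.2 and deposited raw counts for 2 runs per library. Their DESeq2 1.32.0 tables of fold changes and p-values were not used. The annotation and strand setting are not given in the sources used here. Counts of both runs were summed (chi-square per degree of freedom 0.998 to 1.05 between runs, 1.67 to 5.86 between replicates) and 92 ERCC rows were dropped, which left 55416 genes, 54749 of them in GENCODE for GRCm39. Libraries were grouped by treatment label. Genes were tested with edgeR 4.0.16 (R 4.3.3, TMM, filterByExpr, glmQLFit and glmQLFTest), with Benjamini-Hochberg adjustment over all genes tested, on the compared groups only. Levels are log2 CPM with prior count 2. Permutations and scores used Python 3.11.15, numpy 2.4.6, pandas 2.3.3 and scipy 1.17.1. Mer sets needed a mean of at least 1 CPM. Tests were checked on simulated counts. Alternatives were DESeq2 1.42.0 with betaPrior, RLE factors, no filter, single runs, all libraries of the series, a replicate block and leave-one-out. The block kept only replicate numbers found in both groups, so against mock only mock replicates 1 to 4 entered. Named genes are Ttr, Hao1, Gapdh, Rbp4, all calls, the 10 smallest p-values of each pooled comparison, list members with unadjusted p under 0.05 and the 3 most abundant, and the seed, neighbouring and Ttr-like genes given. The siRNAs, lists and tests were chosen with earlier results of these data known. The values of 1 list member are not reported here.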

Additional observations from a re-analysis of the deposited data

How the results depend on the processing

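The loss of Ttr kept its direction in every alternative run, between −7.45 and −6.94 on the log2 CPM scale when 1 library was left out. DESeq2 with betaPrior shrank the fitted Ttr change to −0.08 against mock (adjusted p = 0.0424) and −0.04 against the Hao1 siRNAs (adjusted p = 0.915). Counts of called genes moved as follows, and the cause was not tested. The pooled comparison with mock (3 genes) gave 14 with DESeq2, 131 with all genes of at least 1 count, 5 from run 1 alone, 96 with the replicate block and 84 with mock replicates 1 to 4 only, the last chosen after seeing the data. Every block fit against mock also held only mock replicates 1 to 4, so its counts mix the block with the smaller control set. D4 (1 gene) gave 18 with all genes, 59 with the block and 8 with mock replicates 1 to 4. D5 (0 genes) gave 1 with DESeq2, 55 with all genes, 1 from run 2 alone, 1 in a fit of all libraries of the series, 41 with the block and 13 with mock replicates 1 to 4. D6 (6 genes) gave 14, 67, 3, 171 and 90 with DESeq2, all genes, all libraries of the series, the block and mock replicates 1 to 4. The Hao1 siRNAs (8 genes) gave 24, 38, 1, 1 and 1 under the same 5 settings, Hao1 itself in the last 3, and D6 against D4 gave 1 with all genes. Against the Hao1 siRNAs the block called the same 3 genes. The labels do not say whether replicate numbers pair libraries. Same-numbered deviations correlated between −0.0307 and 0.0518 in 12 pairs, and 3 of them were best with their own number. Whether same-numbered libraries shared a plate or culture was not tested.

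Leaving out 1 library gave 1 to 44 genes for the pooled comparison, 1 to 2 for D4, 0 to 31 for D5 (31 without D5 replicate 3), 3 to 20 for D6, 3 to 4 against the Hao1 siRNAs, 3 to 22 for the Hao1 siRNAs, 0 to 0 for D5 against D4, 0 to 2 for D6 against D4 and 0 to 0 for D6 against D5. The permutation differences of Ttr spanned −0.76 to 1.09 for D5 minus D4, −0.22 to 0.12 for D6 minus D4 and −1.13 to 0.72 for D6 minus D5, the ERCC share −0.0014 to 0.0467, the mitochondrial share 0.135 to 0.204 points and detected genes 132 to 323. Fitted changes that turned were those of Gapdh (0.0041 with the block, 0.0040 with mock replicates 1 to 4), Uba7 (0.0081 and 0.0014, and −0.11 to 0.0352 leaving out a library) and Ttr in D6 against D4 from run 2 alone (0.13). Leaving out a library also turned Cpeb1 (−0.0116 to 0.0758) and Irgm1 (−0.0237 to 0.0589) against the Hao1 siRNAs, and Ttr in D5 against D4 (−0.79 to 2.65), D6 against D4 (−0.26 to 0.16) and D6 against D5 (−2.67 to 0.76). With the block Sprr1a, Csn3, Lpin1, Axl, Tspan9 and Acacb gained a call against mock (adjusted p of 0.00135, 0.00376, 0.00376, 0.00484, 0.00497 and 0.0245). That fit held only mock replicates 1 to 4, and with those controls and no block each of these genes also gained a call (adjusted p of 0.0320 or less, edgeR). Ccne1 lost its call from run 2 alone (adjusted p = 0.101), and Cpeb1 lost its call from either run, with all libraries of the series, with the block and with mock replicates 1 to 4.

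Depth limits low genes and the level left of Ttr. Mock and siRNA libraries differ in having received an siRNA, and whether mock received the lipid is not stated. The comparison with mock therefore cannot tell Ttr loss from siRNA treatment or from the lipid.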
